A study of Micropterus salmoides with 6 samples.

Results

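The HSP90 family was described in the intestine of largemouth bass (Micropterus salmoides) through 5 genes: hsp90aa1.2, hsp90aa1.1, hsp90ab1, hsp90b1 and trap1. They were taken by their identifiers from the deposited gene table, in which 35854 genes remained once assembled genes that repeat the lncRNA table were set aside. All 5 were present, all 5 were annotated as protein coding in the reference gene table, and all 5 passed the filter on low counts. The heat group held 3 libraries from fish kept at 34 °C and the control group held 3 libraries from fish kept at 26 °C, both sampled after 9 h. Every fish had first been acclimated at 26.0 °C for 2 weeks on commercial feed. Each library pooled the intestines of 3 fish from 1 of 3 parallels per temperature, so a value stands for a pool and the spread between single fish was not measured. Whole intestine holds several cell types, and in such bulk RNA fewer cells of a type and less RNA per cell cannot be told apart.

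HSP90 proteins are ATP-driven dimeric chaperones that bind partly folded clients, among them steroid receptors and protein kinases, and bring them to an active state together with co-chaperones. Vertebrates make cytosolic forms, the alpha form being the stress-inducible one in mammals and the beta form the constitutive one, as well as GRP94 in the endoplasmic reticulum (ER) and TRAP1 in mitochondria. In the cytosol HSP90 also holds heat shock factor 1, the main transcription factor of the heat shock response, in an inactive state. Teleost fish such as zebrafish carry a tandem pair of alpha genes, of which the first is known in zebrafish for its role in folding muscle myosin.

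Gene table totals ran from 8.24 M to 15.73 M counts (M, 1e+06) in the heat libraries and from 12.25 M to 28.82 M in the controls. Control replicate 1 stood apart. Across genes its log2 CPM (counts per 1e+06 reads on TMM-scaled library sizes) correlated at 0.89 and 0.87 with the other controls, which correlated at 0.95 with each other, and a quality-weighted fit gave it a weight of 0.131 against 1.104 to 1.998 for the other libraries. Absorptive epithelium markers were abundant in every library (9 genes found, summed 7970 to 13523 TPM in heat and 8377 to 26862 TPM in control libraries). The highest sum was that of control replicate 1, against 8377 and 11492 TPM in control replicates 2 and 3. Markers of smooth muscle (8 genes, 3048 to 4568 TPM in heat and 5005 to 9366 TPM in control libraries) and of blood cells (4 genes, 248 to 325 TPM in heat and 355 to 447 TPM in control libraries) did not overlap between the groups. Goblet cell markers (2 genes, 177 to 479 TPM in heat and 171 to 348 TPM in control libraries) and exocrine pancreas markers (2 genes, 58.2 to 98.6 TPM in heat and 34.2 to 147 TPM in control libraries) overlapped, and none of these 5 lists held a gene at 0 in all libraries. Their part in the results below was not tested.

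With all 6 libraries, 1 of the 5 members was called higher at 34 °C, which does not show that the others were unchanged. The tandem alpha gene hsp90aa1.2 was 25.4-fold higher in heat than in control libraries, while its immediate neighbour hsp90aa1.1, the beta gene hsp90ab1, the ER gene hsp90b1 and the mitochondrial gene trap1 did not pass the test with all 6 libraries. The share of all genes past the threshold was 0.984% in either direction and 0.590% for higher genes (edgeR's quasi-likelihood F test over 20326 genes, threshold 0.05 on p adjusted by Benjamini-Hochberg). CPM of the groups did not overlap, with heat higher, for hsp90aa1.2, hsp90aa1.1 and hsp90b1, 3 of 5 members, against 11.5% of all tested genes. For hsp90ab1 and trap1 the groups overlapped.

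**Figure D1:**
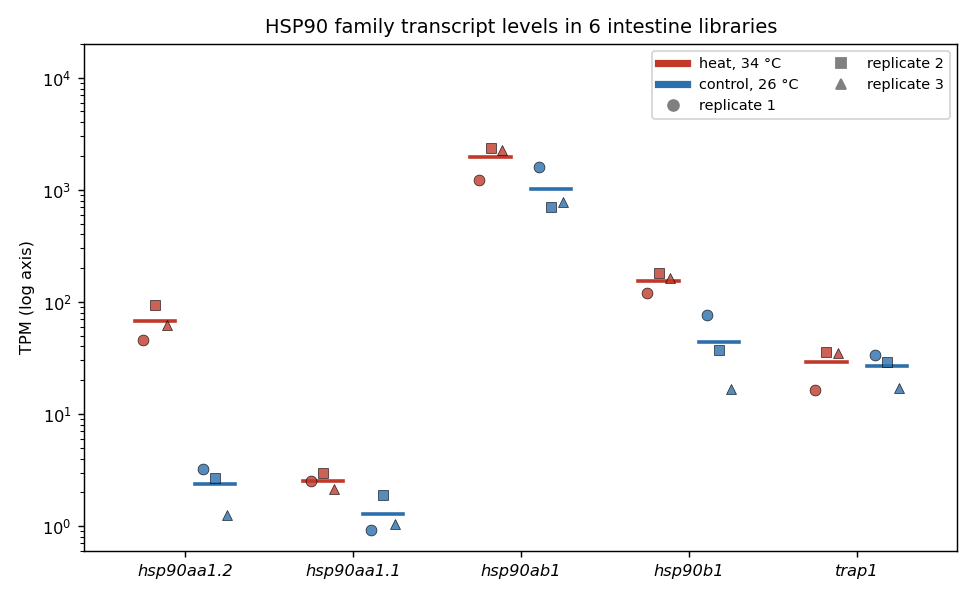
TPM of the 5 HSP90 genes on a log axis, with heat libraries left of control libraries, symbols for replicates and a bar at the mean of 3. The hsp90aa1.2 points lie at 45.8 to 94.1 TPM in heat and 1.25 to 3.24 TPM in control libraries, while trap1 points overlap.

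The gene hsp90aa1.2 (NW_024040928.1, plus strand, 10859769 to 10865573) encodes the second of the tandem cytosolic alpha forms. It had 615, 1824 and 1085 reads in heat replicates 1, 2 and 3, against 124, 47 and 20 reads in control replicates 1, 2 and 3. Scaled for library size, that was 79.9, 108 and 69.6 CPM in heat and 5.32, 3.03 and 1.65 CPM in control libraries. Every heat library lay above every control library, and the lowest heat value was 13.1 times the highest control value. The means were 86.0 ± 20.1 CPM in heat and 3.33 ± 1.86 CPM in control libraries (SD, n = 3 each), a log2 fold change of 4.66 (SE 0.47, 95% interval 3.58 to 5.75, edgeR adjusted p = 0.0203), or 11.96-fold to 53.8-fold. Among the 20326 tested genes it ranked 27th from the top by fold change and 9th by p.

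The size of that difference depended on which control it was read against, since control replicate 1 held the most transcript of the controls. The mean of the heat libraries was 16.2 times control replicate 1, 28.4 times control replicate 2 and 52.2 times control replicate 3. The log2 fold change was 4.39 to 5.19 with 1 library left out. The gene did not pass without heat replicates 1, 2 or 3 (edgeR adjusted p = 0.115, 0.129 and 0.0712) or without control replicate 2 (0.0786), and it passed without control replicates 1 and 3 (0.00650 and 0.0393). In those 6 fits it ranked between 5 and 30 by p, and the number of genes called ran from 0 to 1825.

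The gene hsp90aa1.1 (NW_024040928.1, plus strand, 10854816 to 10859456) ends 312 bases before hsp90aa1.2 begins, on the same strand. It was the least abundant member, with 35, 59 and 39 reads in heat and 36, 34 and 18 reads in control libraries. On the CPM scale it was at 4.55, 3.51 and 2.50 in heat and 1.54, 2.19 and 1.48 in control libraries. The groups did not overlap, but the gap was small: heat replicate 3 rested on 39 reads (exact Poisson 95% interval 27.7 to 53.3) and control replicate 2 on 34 reads (23.5 to 47.5), intervals that cover counting error only. Means were 3.52 ± 1.02 CPM in heat and 1.74 ± 0.393 CPM in control libraries (SD, n = 3 each), a log2 fold change of 1.004 (SE 0.43, 95% interval 0.02 to 1.99) that did not pass (edgeR adjusted p = 0.292). It passed in none of the 17 alternative fits. The copies are neighbours and may share reads, which was not tested, so the separate low values of hsp90aa1.1 are uncertain.

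As a muscle context for hsp90aa1.1, the skeletal muscle marker list was close to absent from these libraries. Of its 13 genes 7 were at 0 in every library (ckma, ckmb, mylpfa, tnnc2, myoz1a, myoz1b and casq1a), and the summed level was 0 to 1.503 TPM in heat and 1.16 to 3.75 TPM in control libraries. Of the genes known in zebrafish muscle to work with HSP90 on myosin, the myosin chaperone gene unc45b and the methyltransferase gene smyd1b did not reach the count filter, nor did the related smyd2b. The related methyltransferase gene smyd2a was at 10.5 ± 1.503 CPM in heat and 10.3 ± 4.86 CPM in control libraries (SD, n = 3 each), with a log2 fold change of 0.02 that did not pass.

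The gene hsp90ab1 (NW_024040928.1, minus strand, 19456598 to 19463629) encodes the cytosolic beta form and lies 8.59 megabases beyond hsp90aa1.2 on the same scaffold. It was the 24th most abundant of all tested genes by CPM. Its levels were 2236, 2842 and 2683 CPM in heat replicates 1, 2 and 3, against 2706, 829 and 1063 CPM in control replicates 1, 2 and 3. Control replicate 1 thus lay among the heat libraries, and the other controls lay below them. The means were 2587 ± 315 CPM in heat and 1533 ± 1023 CPM in control libraries (SD, n = 3 each), a log2 fold change of 0.75 (SE 0.53, 95% interval -0.46 to 1.97) that did not pass (edgeR adjusted p = 0.521). The interval reaches from 0.725-fold to 3.93-fold. Without control replicate 1 the log2 fold change was 1.46 (edgeR adjusted p = 0.0207), in a fit that called 8.71% of genes. As that library was the highest control, leaving it out was bound to raise the fold change.

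The gene hsp90b1 (NW_024044570.1, plus strand, 14553566 to 14560565) encodes GRP94, the HSP90 of the ER lumen, which folds secreted and membrane proteins such as integrins and Toll-like receptors. It was at 220, 217 and 191 CPM in heat replicates 1, 2 and 3, against 131, 43.7 and 23.1 CPM in control replicates 1, 2 and 3. The heat libraries lay close together and above all controls, and the controls ranged widely, with replicate 1 at 3.91 times the mean of the other 2. Means were 209 ± 15.9 CPM in heat and 65.8 ± 57.0 CPM in control libraries (SD, n = 3 each), 3.18-fold (log2 fold change 1.67, SE 0.58, 95% interval 0.32 to 3.02). The unadjusted p was 0.0216 and the edgeR adjusted p was 0.214, so it did not pass. Without control replicate 1 the log2 fold change was 2.66 (edgeR adjusted p = 0.0124), and with DESeq2 on all libraries it was 1.72 (DESeq2 adjusted p = 0.0371). Those fits called 8.71% and 7.07% of all genes, and leaving out the highest control was bound to raise the fold change.

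The gene trap1 (NW_024041961.1, plus strand, 147 to 4793) encodes the mitochondrial HSP90, which is known for a role in respiration and in protection against oxidative stress. Its annotated span begins at position 147 of a scaffold that carries 4 annotated genes. Levels were 26.1, 37.7 and 35.8 CPM in heat replicates 1, 2 and 3, against 50.6, 30.0 and 20.5 CPM in control replicates 1, 2 and 3. The heat libraries fell inside the range of the controls, whose highest and lowest values were also the highest and lowest of all 6. Means were 33.2 ± 6.21 CPM in heat and 33.7 ± 15.4 CPM in control libraries (SD, n = 3 each), a log2 fold change of -0.02 (SE 0.36, 95% interval -0.85 to 0.80, edgeR adjusted p = 0.984). The interval allows changes between 0.555-fold and 1.74-fold. The sign turned in 11 of 17 alternative fits, to 0.41 without control replicate 1 and 0.36 with quality weights, and none of these passed.

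A further gene of the table carries an HSP90 family annotation and is not one of the 5: LOC119889792 (NW_024040041.1, minus strand, 18971437 to 18974480), described as a mitochondrial 75 kDa heat shock protein, the name under which TRAP1 is also known. It was at 7.66, 12.2 and 13.3 CPM in heat and 19.0, 6.71 and 3.79 CPM in control libraries, and the groups overlapped (log2 fold change 0.16, SE 0.57, with edgeR adjusted p = 0.916). Its log2 fold change was 1.089 without control replicate 1 (edgeR adjusted p = 0.106). Whether this gene and trap1, which lies at the start of its scaffold, are parts of 1 gene or separate genes was not settled, so the levels, shares and ratios of trap1 are those of its annotated model alone. Its reads per unit of TPM were 0.348 to 0.352 of those of trap1 in the 6 libraries. Its reads came to 29.4%, 32.3% and 37.1% of those of trap1 in heat replicates 1, 2 and 3, against 37.5%, 22.3% and 18.5% in control replicates 1, 2 and 3.

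**Figure D2:**
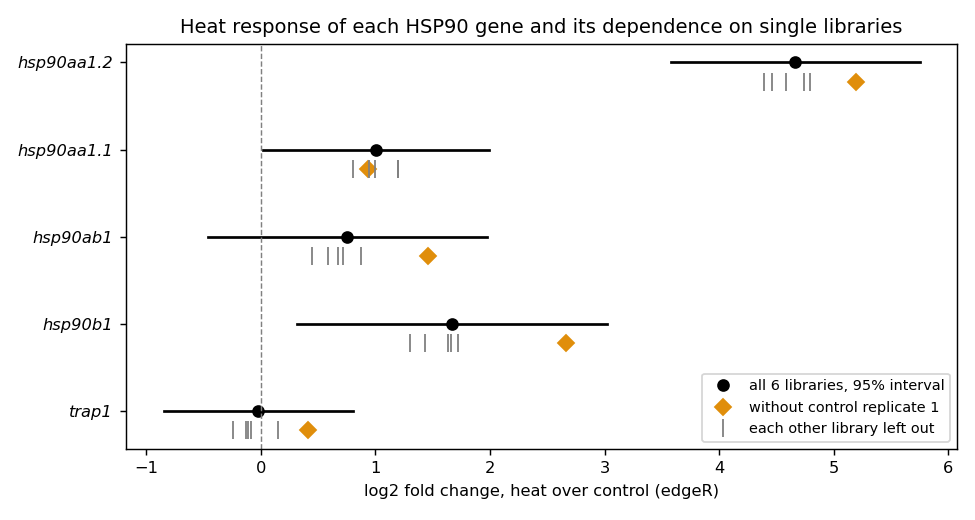
Log2 fold change of heat over control for each HSP90 gene (edgeR), with all 6 libraries as a dot and 95% interval and with 1 library left out as ticks or, for control replicate 1, a diamond. Only the interval of trap1 and that of hsp90ab1 reach across 0. The intervals are not adjusted over genes, and 16.6% of all tested genes had an unadjusted p under 0.05. Of the other members only hsp90aa1.2 passed with all 6 libraries. Leaving out control replicate 1 gives the highest value for 4 of the genes, hsp90aa1.1 being the exception.

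Levels of different genes were compared per length, on the deposited TPM scale. In all 6 libraries hsp90ab1 was first and hsp90aa1.1 last among the 5 genes. The beta gene was at 1230, 2364 and 2279 TPM in heat and 1586, 708 and 776 TPM in control libraries, 262.8 to 623 times the level of hsp90aa1.2 in the controls. Second came hsp90b1, with 121, 181 and 163 TPM in heat and 76.6, 37.3 and 16.9 TPM in control libraries. In control replicate 3 trap1, at 17.04 TPM, was marginally above it, so the order of these neighbours was not separated in the controls.

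The order in the lower part of the family differed between temperatures. In heat libraries hsp90aa1.2 ranked just below hsp90b1, at 45.8, 94.1 and 61.7 TPM, above trap1 at 16.4, 35.8 and 34.7 TPM. In control libraries it ranked below trap1 as well, at 3.24, 2.69 and 1.25 TPM, against trap1 at 33.9, 29.3 and 17.0 TPM. Within a library the hsp90aa1.2 level was 2.79, 2.63 and 1.78 times that of trap1 in heat and 0.0957, 0.0921 and 0.0730 times in control libraries. The lowest-ranking neighbours in the controls, hsp90aa1.2 and hsp90aa1.1 (0.916, 1.90 and 1.05 TPM), overlapped in range, although hsp90aa1.2 was the higher in each library. In heat libraries hsp90aa1.1 was at 2.55, 2.96 and 2.14 TPM, far below its neighbour.

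Summed over the 5 genes, HSP90 transcripts came to 1416, 2677 and 2540 TPM in heat and 1700, 779 and 812 TPM in control libraries. The groups overlapped through heat replicate 1 and control replicate 1 (exact permutation test over libraries, two-sided, p = 0.2). Within that sum the beta gene made up 86.9%, 88.3% and 89.7% in heat and 93.3%, 90.9% and 95.5% in control libraries. The part of hsp90aa1.2 was 3.24%, 3.52% and 2.43% in heat and 0.190%, 0.346% and 0.153% in control libraries, a mean difference of 2.83 percentage points. The part of hsp90b1 was 7.24 ± 1.16% in heat and 3.79 ± 1.49% in control libraries, and that of trap1 was 1.29 ± 0.112% in heat and 2.62 ± 0.989% in control libraries (SD, n = 3 each). For these 4 genes the groups did not overlap and the exact permutation p was 0.1, the smallest that 3 against 3 can give (0.125 adjusted over the 5 shares). The shares of a library add up to a fixed total, so the 4 differences are not separate results. A lower share does not mean a lower level. For hsp90aa1.1 the part was 0.125 ± 0.0495% in heat and 0.142 ± 0.0958% in control libraries (exact permutation p = 0.8, n = 3 each).

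Within the tandem alpha pair, hsp90aa1.2 supplied 94.7%, 97.0% and 96.7% of the TPM in heat and 78.0%, 58.6% and 54.2% in control libraries. All heat libraries lay above all controls. Of the 3 cytosolic genes together it supplied 3.58%, 3.82% and 2.63% in heat and 0.204%, 0.378% and 0.160% in control libraries, so that hsp90ab1 remained the main cytosolic transcript at both temperatures.

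Ratios between members were taken within each library on TPM + 0.1, and 10 pairs were compared. How libraries are scaled enters these ratios only through the added 0.1, which weighs most at low TPM, as for hsp90aa1.1. The log2 ratio of hsp90aa1.2 to hsp90aa1.1 was 4.12, 4.95 and 4.79 in heat and 1.72, 0.48 and 0.22 in control libraries, a difference of 3.81. The ratio of hsp90aa1.2 to hsp90ab1 was -4.74, -4.65 and -5.20 in heat and -8.89, -7.99 and -9.17 in control libraries, a difference of 3.82. The differences of hsp90aa1.2 against hsp90b1 and trap1 were 2.73 and 4.70. In all 4 pairs every heat library lay above every control library, by at least 2.26 log2 units between the nearest libraries.

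The pairs without hsp90aa1.2 differed less. The log2 ratio of hsp90b1 to trap1 was 2.88, 2.33 and 2.23 in heat and 1.18, 0.35 and -0.02 in control libraries, a difference of 1.98. That of hsp90ab1 to trap1 differed by 0.89 and that of hsp90ab1 to hsp90b1 by -1.09, again without overlap. For the 3 remaining pairs, all with hsp90aa1.1, the groups overlapped (differences of 0.01, -1.08 and 0.89 against hsp90ab1, hsp90b1 and trap1). The 7 pairs without overlap had the smallest exact permutation p possible with 3 against 3, 0.1, and 0.143 adjusted over the 10 pairs, so none could pass a threshold of 0.05.

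**Figure D3:**
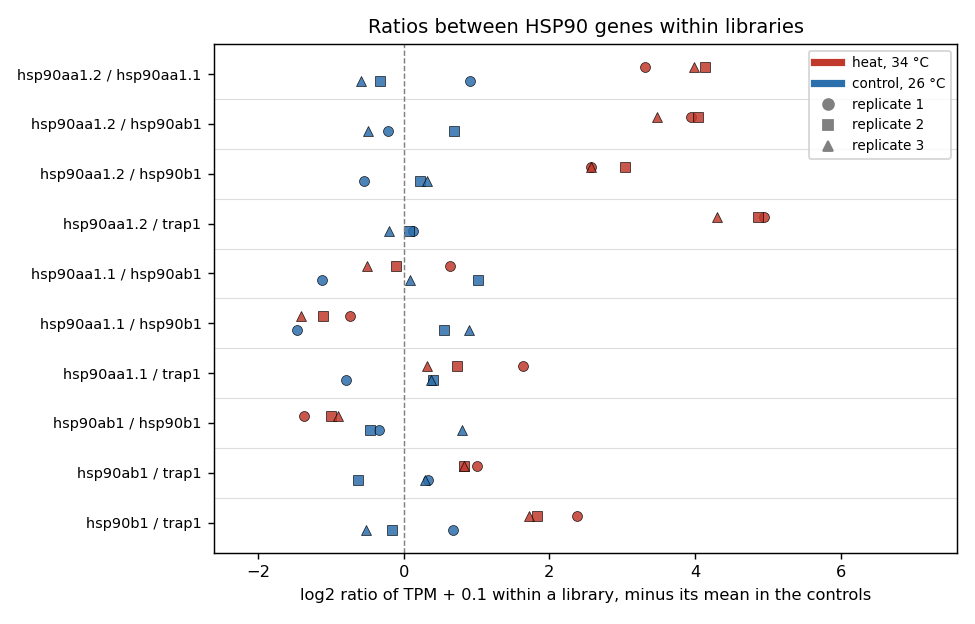
Log2 ratio of TPM + 0.1 between members within each library, drawn relative to the mean of the 3 controls, with heat libraries above control libraries in each row. The 4 upper rows, all ratios of hsp90aa1.2, hold the widest gaps, with mean differences of 2.73 to 4.70.

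The 7 tested genes that flank the HSP90 genes within 10 kb did not pass the test with all libraries. With 0.984% of all tested genes past the threshold, so short a list says little. The gene LOC119881829 near trap1, with 0 to 9 reads per library, was not tested. On the plus strand 1195 bases after hsp90aa1.2 lies ppp2r5cb, a regulatory subunit gene of protein phosphatase 2A. It was at 46.3 ± 6.52 CPM in heat and 77.2 ± 9.80 CPM in control libraries (SD, n = 3 each; log2 fold change -0.74, edgeR adjusted p = 0.186), the opposite direction to hsp90aa1.2. On the other side of the tandem pair, wdr20b had a log2 fold change of -0.33 (SE 0.29). Beside hsp90b1, LOC119893118, a regulatory subunit gene of protein kinase A that begins 2428 bases after it, was at 4.78 ± 1.72 CPM in heat and 1.34 ± 0.346 CPM in control libraries (SD, n = 3 each; log2 fold change 1.82, edgeR adjusted p = 0.103). The opposite-strand nt5dc3, 535 bases before hsp90b1, had a log2 fold change of 0.33 (SE 0.39). Beside hsp90ab1, the log2 fold changes of rbm25b and slc35b2 were -0.47 and -0.40. They were -0.94 and -0.07 without control replicate 1, where rbm25b passed (edgeR adjusted p = 0.0226), in a fit that called 8.71% of all genes. For rbm25b control replicate 1 was the lowest control, at 47.3 CPM against 320 and 317 CPM in the others. Leaving it out was bound to lower the fold change, so that pass adds no support. The opposite-strand LOC119881827, which lies 5 bases after trap1, had a log2 fold change of -0.71 (edgeR adjusted p = 0.478). No gene or lncRNA transcript of the tables overlapped any of the 5, and no lncRNA transcript lay within 10 kb.

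Cytosolic HSP90 works with co-chaperones that load, time and release its clients. The gene table held 28 listed co-chaperone genes, matched by symbol. No gene was found by symbol for ahsa1, ahsa2, stub1, tomm34, itgb1bp2, cacybp, fnip2 and aip, so the list says nothing of them. Of these, 24 could be tested and 0 passed in edgeR, against 0.984% of all genes, and 3 had an unadjusted p under 0.05, all higher in heat. Over all tested genes 16.6% had such a p, 6.86% being higher in heat, and DESeq2 called 7.07%. With DESeq2 2 of the 24 passed, which is near that share and is no result about the list. The median log2 fold change was 0.11, beside -0.12 over all tested genes, and 14 were above 0 and 10 below. The largest was that of fkbp5, an immunophilin of steroid receptor complexes, at 338, 576 and 434 CPM in heat and 145, 53.0 and 48.4 CPM in control libraries (log2 fold change 2.45, SE 0.50, with edgeR adjusted p = 0.0696). The adaptor stip1, which joins HSP70 to HSP90, was at 187, 194 and 164 CPM in heat and 85.6, 33.9 and 42.3 CPM in control libraries (log2 fold change 1.75, SE 0.38, with edgeR adjusted p = 0.0802). Both genes had control replicate 1 as the highest control and all heat libraries above it.

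The other abundant co-chaperone genes, fnip1 and tsc1b, had log2 fold changes of 0.17 and -0.24 that did not pass, and without control replicate 1 that of fnip1 was -0.05. The co-chaperone gene fnip1, whose product slows the HSP90 ATPase in mammals, was at 132 ± 25.2 CPM in heat and 117 ± 41.7 CPM in control libraries, and tsc1b, of the tuberous sclerosis complex, was at 94.9 ± 2.71 CPM in heat and 112 ± 9.91 CPM in control libraries (SD, n = 3 each). Without control replicate 1, 4 co-chaperone genes were higher and 0 lower, against 4.61% higher over all genes in that fit. They were fkbp5, stip1, fkbp4 and chordc1b, with log2 fold changes of 3.16, 2.26, 1.16 and 1.21, and the last 2 were named after their values were seen. Control replicate 1 was the highest control for each of these 4 genes and for 15 of the 24, beside 44.6% of all tested genes. An upward shift was therefore set in advance for them, and the comparison with all genes is no test of the list.

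Of the heat shock factors and their binding protein 3 genes were tested. None of the 3 passed in edgeR or DESeq2 or had an unadjusted p under 0.05, but with shares of 0.984%, 7.07% and 16.6% over all genes, so short a list says little. The factor gene hsf1 was at 60.9, 68.3 and 73.6 CPM in heat and 27.1, 81.9 and 101.6 CPM in control libraries, overlapping. The related hsf2 was at 69.6 ± 5.52 CPM in heat and 47.6 ± 24.1 CPM in control libraries, and hsbp1b, whose product binds the factors, was at 10.1 ± 1.07 CPM in heat and 12.2 ± 10.8 CPM in control libraries (SD, n = 3 each). The log2 fold change of hsbp1b was -0.28 with all libraries and 0.78 without control replicate 1, and neither passed. The genes hsf4 and hsf5 did not reach the count filter.

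Of 6 tested receptor clients 0 passed in edgeR and 3 had an unadjusted p under 0.05, 1 of them higher and 2 lower in heat, beside 6.86% higher and 9.78% lower over all tested genes. With DESeq2 2 passed, beside 7.07% of all genes. The mineralocorticoid receptor gene nr3c2 was at 41.8, 40.7 and 77.8 CPM in heat and 112, 222 and 263 CPM in control libraries (log2 fold change -1.89, SE 0.42, with edgeR adjusted p = 0.0827). The estrogen receptor gene esr2b was at 104, 123.0 and 89.1 CPM in heat and 47.4, 34.8 and 34.7 CPM in control libraries (log2 fold change 1.43, SE 0.26, with edgeR adjusted p = 0.0525). For neither gene did the groups overlap, beside 25.8% of all tested genes without overlap in either direction. Both passed without control replicate 1 (log2 fold changes -2.17 and 1.61, edgeR adjusted p = 0.0152 and 0.0127), in a fit that called 8.71% of all genes. For both, control replicate 1 was the control nearest the heat libraries. Leaving it out was bound to widen both differences, so those passes add no support. The paralogue esr2a, named after its values were seen, was lower in heat, also without overlap. It was at 29.1, 42.3 and 50.7 CPM in heat and 80.7, 55.3 and 62.9 CPM in control libraries (log2 fold change -0.70, edgeR adjusted p = 0.274). The glucocorticoid receptor gene nr3c1 was at 80.9 ± 4.004 CPM in heat and 94.8 ± 19.02 CPM in control libraries, and the aryl hydrocarbon receptor gene ahr2 was at 132 ± 6.41 CPM in heat and 167 ± 36.7 CPM in control libraries (SD, n = 3 each).

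**Figure D4:**
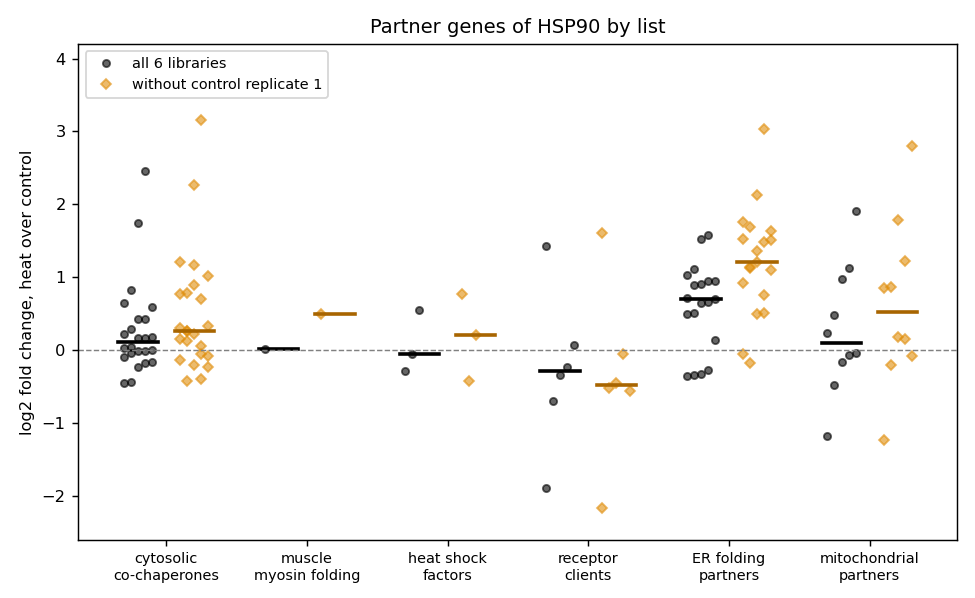
Log2 fold change of heat over control for each tested gene of the 6 partner lists, with all libraries (dots) and without control replicate 1 (diamonds); bars mark medians. The ER partners shift most between the 2 fits, with a median of 0.70 with all libraries and 1.204 without control replicate 1. That library was the highest control for 18 of the 19 ER partners, so an upward shift follows from leaving it out. The shift is not particular to the ER list. Medians of the mitochondrial partners were 0.10 and 0.52 in the same order, and smyd2a, alone in its list, was at 0.02 and 0.49.

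In the ER, GRP94 folds its clients after the HSP70-type chaperone BiP and beside protein disulfide isomerases and lectin chaperones. Of 19 tested ER partners 0 passed in edgeR and 4 had an unadjusted p under 0.05, all higher in heat, beside 6.86% higher over all tested genes. With DESeq2 1 passed, beside 7.07% of all genes, which is no result about the list. The median log2 fold change was 0.70 and 15 of 19 were above 0, beside a median of -0.12 and 42.1% above 0 over all tested genes. CPM did not overlap, with heat higher, for 8 of 19, beside 11.5% of all tested genes. Control replicate 1 was the highest control for 18 of 19 members, which was so for 44.6% of all tested genes, so the list was also read without that library. There 11 of 19 were higher and 0 lower, the median was 1.204 beside 0.01 over all genes, and 4.61% of all genes were higher. Leaving out a gene's highest control lowers its control mean. An upward shift was therefore set in advance for those 18 members, and the comparison with all genes is no test of the list.

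The BiP gene hspa5 was at 187, 149 and 130 CPM in heat and 89.5, 51.3 and 20.8 CPM in control libraries, the same order of controls as for hsp90b1 (log2 fold change 1.53, SE 0.49, with edgeR adjusted p = 0.186). The lectin chaperone gene canx was at 460 ± 90.5 CPM in heat and 293 ± 159 CPM in control libraries (SD, n = 3 each). The disulfide isomerase genes p4hb and pdia3 ran otherwise in control replicate 1, which held more than any other library. They were at 691 ± 87.1 and 374 ± 46.8 CPM in heat and 866 ± 642 and 338 ± 279 CPM in control libraries (SD, n = 3 each; log2 fold changes -0.32 and 0.15). Without control replicate 1 the direction of p4hb turned, to 0.49 (edgeR adjusted p = 0.210), and pdia3 passed at 1.096 (0.0266). The genes hspa5 and canx passed there too, at 2.13 (0.0272) and 1.204 (0.0321).

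In mitochondria, TRAP1 sits beside the HSP60 and mortalin chaperones and the proteases with their partner subunits. No gene was found by symbol for hspe1, grpel2, clpp, htra2 and afg3l2. Of 10 tested partners 0 passed in edgeR and 3 had an unadjusted p under 0.05, 2 higher and 1 lower in heat. The shares over all tested genes were 0.984% in edgeR and, at such a p, 6.86% higher and 9.78% lower. With DESeq2 1 passed, beside 7.07% of all genes. The median log2 fold change was 0.10, with 5 above and 5 below 0. Without control replicate 1, the highest control for 7 of the 10, the median was 0.52. An upward shift was set in advance for those 7. The HSP60 gene hspd1 was at 224, 238 and 113 CPM in heat and 98.2, 47.6 and 7.82 CPM in control libraries (log2 fold change 1.90, SE 0.77, with edgeR adjusted p = 0.270), and the mortalin gene hspa9 was at 140 ± 41.2 CPM in heat and 70.9 ± 55.1 CPM in control libraries (SD, n = 3 each; log2 fold change 0.98). Without control replicate 1 the log2 fold changes were 2.81 for hspd1 and 1.78 for hspa9, which did not pass (edgeR adjusted p = 0.0629 and 0.0581). The genes clpxb and yme1l1b were at 44.5 ± 3.15 and 31.1 ± 0.318 CPM in heat and 49.7 ± 17.5 and 32.1 ± 2.44 CPM in control libraries (SD, n = 3 each). The log2 fold change of clpxb was -0.16 with all libraries and 0.18 without control replicate 1. The smallest adjusted p of the list, chosen after its values were seen, was that of the matrix protease gene lonp1, at 38.9 ± 5.92 CPM in heat and 17.7 ± 3.97 CPM in control libraries (SD, n = 3 each; log2 fold change 1.13, edgeR adjusted p = 0.0958). It passed without control replicate 1 (log2 fold change 1.22, edgeR adjusted p = 0.0322), in a fit that called 8.71% of all genes.

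Genes with the profile closest to each member were found by the root mean square difference between log2 CPM profiles over the 6 libraries, each centred on its own mean, among named genes with a mean of at least 5 CPM. For hsp90aa1.2 there were 11667 candidates with a median difference of 2.47 log2 units. The closest was the matrix protease gene adamts1, at a difference of 0.46. Then came the bZIP repressor gene nfil3-5 at 0.63, the c-Fos-like LOC119909126 at 0.72, an elongation factor 1-alpha gene (LOC119917544) at 0.77 and the leiomodin gene lmod2a at 0.83. The closest, adamts1, was at 117, 143 and 94.1 CPM in heat and 6.35, 9.54 and 2.14 CPM in control libraries, with its highest heat library in replicate 2, as for hsp90aa1.2. Its highest control was replicate 2, while that of hsp90aa1.2 was replicate 1. As adamts1 was chosen for its closeness, a shared order is no separate result. Of the other members, hsp90aa1.1 was below the minimum of 5 CPM and could not be listed. The nearest member to hsp90aa1.2, hsp90b1, lay at 1.40. The measure keeps the size of a change, so members with smaller fold changes lie far from hsp90aa1.2 whatever their pattern.

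**Figure D5:**
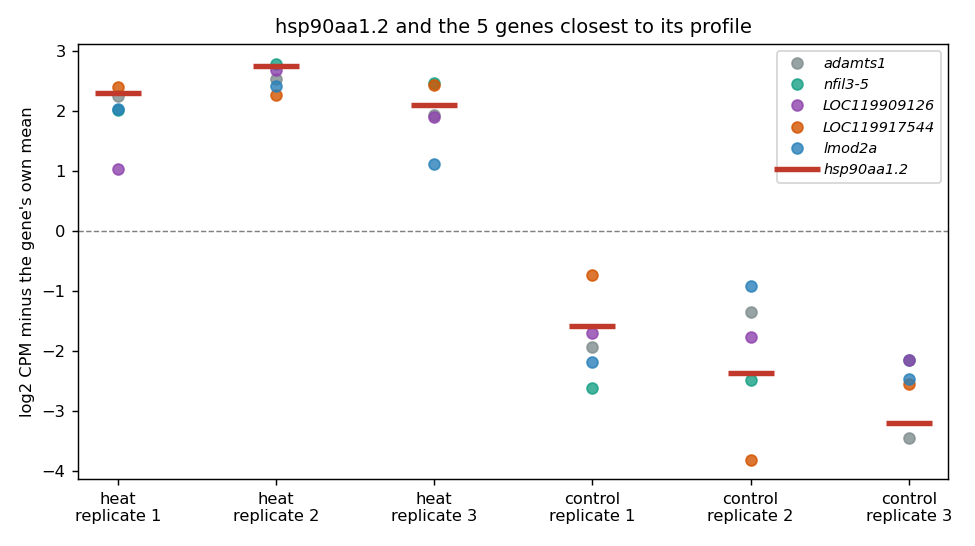
Log2 CPM minus each gene's own mean in the 6 libraries for hsp90aa1.2 (bars) and the 5 genes closest to it (dots), heat libraries left of controls. The closest, adamts1, differs from hsp90aa1.2 by a root mean square of 0.46 log2 units.

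The other members had other closest genes. For hsp90ab1 they were vamp5 (0.16), the mitoferrin-2-like LOC119898194 (0.16) and the elongation factor subunit gene eef1db (0.16), and in all 3 control replicate 1 lay well above the other controls. In vamp5, a vesicle fusion gene, levels were 27.9, 27.2 and 25.4 CPM in heat and 30.8, 8.51 and 12.8 CPM in control libraries. For hsp90b1 they were the claudin-4-like LOC119895476 (0.23), the riboflavin kinase gene rfk (0.27) and the co-chaperone gene dnajc15 (0.28). For trap1 they were vamp8 (0.08), LOC119899572 (0.09) and LOC119891235, annotated as the HSP90 co-chaperone Cdc37 (0.09). The last was at 12.7, 18.7 and 15.1 CPM in heat and 23.4, 13.9 and 8.65 CPM in control libraries, highest in control replicate 1 and lowest in control replicate 3, as was trap1. For hsp90aa1.1 they were the activin receptor gene acvr2aa (0.11), the checkpoint kinase gene chek2 (0.12) and LOC119915862 (0.13).

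Among the members themselves hsp90ab1 and trap1 had the smallest root mean square difference, at 0.55 log2 units, and hsp90aa1.2 and trap1 the largest, at 2.36. This measure counts the size of changes together with their pattern and does not separate them. The root mean square of trap1 about its own mean was only 0.41, so a small difference does not mean a shared pattern.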

How the data were processed

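Intestinal RNA of 6 pooled libraries was analysed. The authors deposited whole-number counts and TPM (length-scaled abundance) for each gene and lncRNA transcript, per the file headers. Tools listed in the submitters' processing notes, with no role for any, are DESeq, HISAT2 2.1.0 and StringTie 1.3.3. The genome build and strand setting are not given in the sources used here. Positions are those of the deposited tables. Of the 35854 genes, 33187 matched the reference gene table (ASM1485139v1), and 33186 of these had the same start and end. The 2488 assembled genes equal to summed lncRNA counts were left out.

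Counts of genes and lncRNA transcripts were fitted together with edgeR 4.0.16 in R 4.3.3 (filterByExpr, minimum count 10 and total 15, TMM, quasi-likelihood F test), with p adjusted over the 20326 genes that passed. SE came from the F statistic. Fold changes are heat over control. The common biological coefficient of variation was 0.436. The fit was tested on simulated data. Shares and ratios used TPM, with a pseudocount of 0.1 for ratios, and exact permutation tests over libraries. Alternatives used DESeq2 1.42.0, limma 3.58.1, other scalings and filters, and left-out libraries. Whether the parallels of a temperature were independent cultures is not stated, so p-values measure only the spread between these pools.

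The 5 genes, the partner lists and the markers were chosen with earlier results of these data known. Partner and marker genes were matched by symbol, so genes that carry only a locus name (LOC) were left out of the lists. Named genes were all 5 members, the list members past the threshold, then the most abundant until 4 were named, and the closest profiles (5 genes for hsp90aa1.2, 3 for each other member).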

Additional observations from a re-analysis of the deposited data

How the results depend on the processing

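The rise of hsp90aa1.2 kept its direction in all 17 alternatives (log2 fold change 4.32 to 5.19) and its call in 12; it lost the call with the replicate block (4.79, edgeR adjusted p = 0.0827) and without heat replicates 1, 2 and 3 and control replicate 2, and with 1 library left out the value ran from 4.39 to 5.19. The labels do not say that the numbers mark a shared source. Deviations of same-numbered libraries correlated across genes at 0.04, -0.04 and 0.12 for numbers 1, 2 and 3. Heat replicates 1 and 3 were closest to the control of their own number, and heat replicate 2 was closest to control replicate 1 (0.05). With that block 0 of 20326 genes were called.

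The count of 200 genes was 1437 with DESeq2, 355 with genes alone, 2078 with voom quality weights, 49 with limma on log2(TPM + 1) without a filter, and 0 to 1825 with 1 library left out.

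For hsp90ab1 the log2 fold change passed with quality weights (1.44) and ran from 0.45 to 1.46 with 1 library left out. For hsp90b1 it passed with DESeq2 (1.72) and quality weights (2.52) and ran from 1.31 to 2.66. Quality weights gave control replicate 1, the highest control for both genes, a weight of 0.131. A higher fold change was therefore set in advance in that fit too, and its passes add no support. For trap1 the sign turned with RLE (0.0150), upper quartiles (0.0348), DESeq2 (0.0150), genes alone (0.0244), quality weights (0.36), the replicate block (0.0670) and limma on TPM with pseudocount 1 (0.0873), pseudocount 0.1 (0.0893) or no filter (0.0873), and ran from -0.24 to 0.41 with 1 library left out. For hsp90aa1.1 it ran from 0.80 to 1.196.

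Co-chaperones past the threshold were 2 with DESeq2, 2 with genes alone, 4 with quality weights, 2 and 1 with limma at pseudocounts 1 and 0.1, and 0 to 4 with 1 library left out. Receptor clients were 1 with RLE, upper quartiles or genes alone, 2 with DESeq2 or quality weights, and 0 to 2. ER partners were 1 with DESeq2, 12 with quality weights and 0 to 11. Mitochondrial partners were 1 with DESeq2, 3 with quality weights and 0 to 1. Over all genes 7.07% were called with DESeq2, 2078 of 20326 with quality weights and 8.71% without control replicate 1. The largest left-out counts came without that library, to which quality weights gave 0.131. It was the highest control for 15 of 24 co-chaperones, 18 of 19 ER partners and 7 of 10 mitochondrial partners. An upward shift was set in advance for those, so the counts of both fits are no result about the lists.

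The share of hsp90aa1.1 turned sign with 1 library left out (-0.0620 to 0.0331 percentage points, with 0.0027 without heat replicate 3 and 0.0331 without control replicate 2). The difference in its ratio to hsp90ab1 turned to -0.33 with pseudocount 1 and ran from -0.55 to 0.52 with 1 library left out, below 0 without heat replicate 1 (-0.30) and control replicate 1 (-0.55). The share of hsp90aa1.2 differed by 2.60 to 3.15 percentage points with 1 library left out, and its log2 ratio to hsp90ab1 by 3.57 to 4.17; paired by number, that ratio's exact p was 0.25, the smallest possible. Causes of these dependences were not tested. With 18 to 59 reads per library, depth limits what can be said of hsp90aa1.1.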
